A study of Rattus norvegicus with 8 samples.

Results

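Cadherins are membrane proteins that bind like molecules on a neighbouring cell through calcium-dependent extracellular repeats. The classical cadherins (types I and II) have a cytoplasmic tail that holds beta-catenin and p120-catenin, and alpha-catenin links that complex to actin. Atypical cadherins depart from this plan: T-cadherin (Cdh13) is tied to the membrane by a lipid anchor and has no tail, and LI-cadherin (Cdh17) has a short tail that does not bind catenins. In the developing retina N-cadherin (Cdh2) holds the neuroepithelium together, and other cadherins mark subsets of neurons.

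The genes described here are 7 rat cadherins that lie outside the epithelial junction set: Cdh2, Cdh4, Cdh11, Cdh13, Cdh15, Cdh17 and Cdh22. They were picked because several of them were higher with Klf4 in these same arrays, so every difference given for them between the groups is a description and not a test. Gene probes whose RefSeq transcript accession, without its version, belongs to a listed symbol numbered 8 and covered 6 of the 7 genes, of 29988 genes and unnamed features compared in all. No probe was matched to Cdh4, which encodes R-cadherin, and it was not analysed here. Cdh2 and Cdh22 had 2 probes each and the other 4 measured genes 1.

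The cells came from Lister hooded rat retinas dissected on postnatal day 0 and electroporated in vitro with 25 V pulses of 50 ms. One group received a control plasmid (4 arrays) and the other a plasmid encoding Klf4, a zinc-finger transcription factor (4 arrays). Both groups were explants kept in culture for 39 hours, then dissociated and sorted for GFP, so all arrays hold only transfected cells of mixed type from a bulk sort. The labels do not name the promoter that drives Klf4 in the plasmid. The arrays are numbered 2 to 5 in each group, and nothing in the labels says whether equal or different numbers mark separate animals, so the spread between arrays may be technical.

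On these single-colour Agilent arrays between 72.1% and 86.5% of gene spots stood well above background, and no gene spot was saturated. Klf4 replicate 4 had the lowest share. Control replicate 4 and Klf4 replicate 4 fell outside the scanner software's quality limits, and the arrays numbered 5 were scanned separately from the other 6. Signals below are log2 values after subtraction of the array's 75th percentile over gene probes, so 0 is a signal at that percentile. The lowest signal still well above background lay between -7.14 and -5.08 on this scale, depending on the array. The Klf4 probe read -3.27 ± 0.62 in the controls and -3.0 ± 0.86 with Klf4 (SD, n = 4 each). The labels do not say whether the plasmid carries the stretch this probe reads, so it checks nothing about them. The retinal identity genes Rax and Crx were well above background on all 8 arrays.

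Promoter sequence was matched for 2 of the 7 genes in a RefSeq table of assembly GRCr8, Cdh15 and Cdh22. They are shown because no promoter was matched for the other listed genes, and not for the direction of their difference. KLF proteins are known to bind GC-rich boxes and CACCC boxes. Each stretch is the 250 bases before the transcription start, on the gene's own strand. Capitals mark every match, on either strand, to a motif of this kind. The CACCC box is the core motif. A longer form is GGGNGTG, which overlaps the former where its reverse complement has A or C at the free base. The GC box is CCGCCC.
Cdh15 promoter, chr19:67814407-67814656, plus strand: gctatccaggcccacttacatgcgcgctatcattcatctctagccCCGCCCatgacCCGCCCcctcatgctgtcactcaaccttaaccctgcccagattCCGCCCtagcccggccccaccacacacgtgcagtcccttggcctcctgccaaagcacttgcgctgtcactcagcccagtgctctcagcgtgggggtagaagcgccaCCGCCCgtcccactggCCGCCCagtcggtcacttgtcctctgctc
Cdh22 promoter, chr3:174389893-174390142, minus strand: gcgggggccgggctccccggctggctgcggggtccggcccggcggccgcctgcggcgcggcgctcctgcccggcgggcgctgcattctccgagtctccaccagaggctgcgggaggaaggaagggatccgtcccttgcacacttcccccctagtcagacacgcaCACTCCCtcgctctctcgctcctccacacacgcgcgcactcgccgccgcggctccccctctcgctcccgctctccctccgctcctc
The Cdh15 window held 5 matches to the GC box and 0 to the other motifs. In the Cdh22 window, of 75.2% G and C against 64% for Cdh15, there was 1 match to the longer form and 0 to the others. Among 33469 RefSeq promoter windows of the same length, 49.2% held the core motif, 23.3% the longer form and 30.5% the GC box. A match is a run of letters and says nothing of binding in these cells.

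Of the 6 cadherins measured, 4 were past the threshold in the fit over all genes (limma with Benjamini-Hochberg adjustment, adjusted p under 0.05) and higher with Klf4. They were Cdh13, Cdh15, Cdh17 and Cdh22. None was past it and lower, and Cdh2 and Cdh11 were not past it. Over all features 3.67% were past it, 3.2% higher and 0.467% lower; since the genes were picked on this contrast, nothing is read from the count. On their representative probes 5 of the 6 genes had no overlap between the groups, 4 with Klf4 higher and 1 lower, against 10.2% of all features (5.74% and 4.48%). The median log2 difference of the 6 was 1.48, beside -0.07 over all features. In these bulk samples a change in the number of cells of a type cannot be told apart from a change in RNA per cell.

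**Figure D1:**
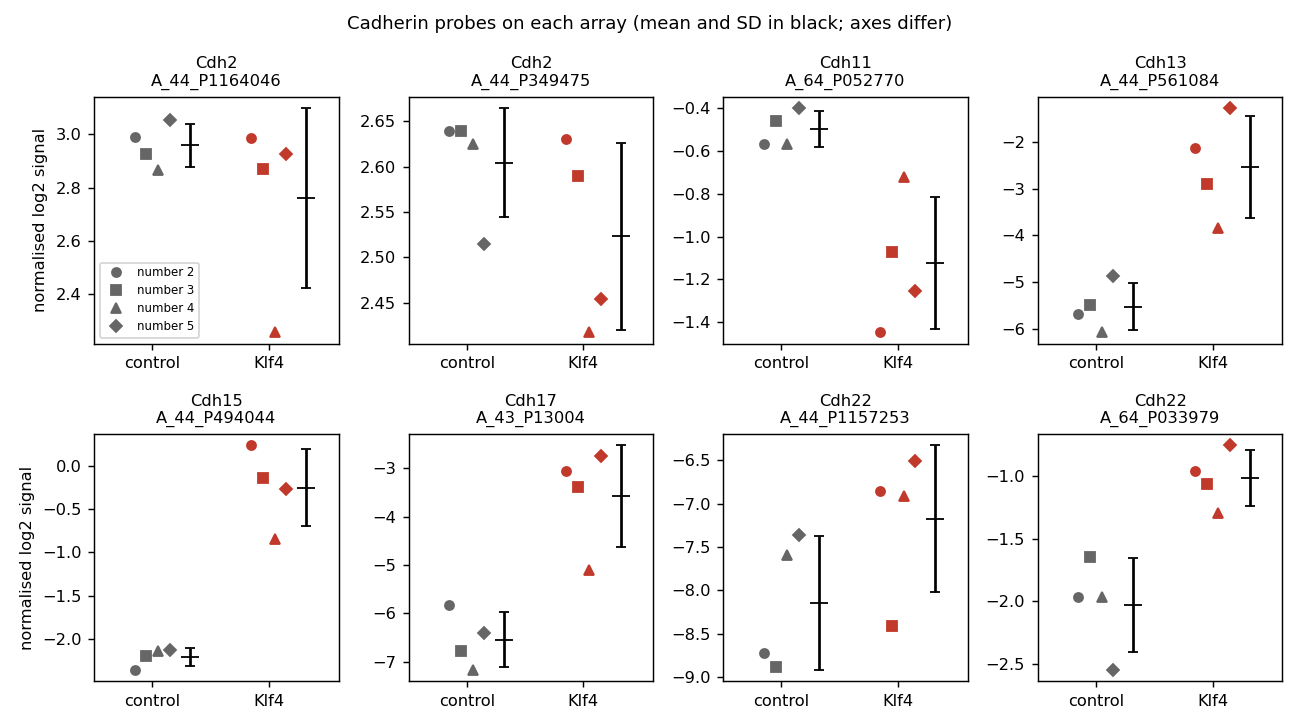
Normalised log2 signal (vertical axis, a different range in each panel) of the 8 cadherin probes on 4 control and 4 Klf4 arrays; marker shapes give the array number, and the black bar beside each group its mean and SD. Cdh13, Cdh15, Cdh17 and the brighter Cdh22 probe separate the groups, Klf4 replicate 4 being the lowest Klf4 array on each, while the Cdh2 probes overlap.

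Among the classical type I cadherins, Cdh2 encodes N-cadherin, the main cadherin of neural progenitors. Its brighter probe read 2.99, 2.93, 2.87 and 3.05 on control arrays 2 to 5 and 2.98, 2.87, 2.26 and 2.93 on Klf4 arrays 2 to 5. The groups overlapped: 3 of the 4 Klf4 arrays lay within the control range and Klf4 replicate 4 lay below it. The group values were 2.96 ± 0.08 and 2.76 ± 0.34 (SD, n = 4 each), a log2 difference of -0.20 (SE 0.18). The second Cdh2 probe gave 2.60 ± 0.06 and 2.52 ± 0.10 (SD, n = 4 each), a difference of -0.08, and the groups overlapped on this probe too. Without Klf4 replicate 4 the difference on the first probe was -0.03. Within the first scan it was -0.22 and within the second -0.12.

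Cdh15 encodes M-cadherin, a type I cadherin first known from skeletal muscle and its satellite cells. It read -2.35, -2.19, -2.13 and -2.13 on the control arrays and 0.23, -0.15, -0.84 and -0.27 on the Klf4 arrays, in the order of their numbers 2 to 5. Every Klf4 array lay above every control, with a gap of 1.29 between the groups, and the probe was well above background on all 8. The raw signal was 168 to 377 intensity units in the controls and 654 to 1839 with Klf4. Group values of -2.20 ± 0.10 and -0.26 ± 0.44 (SD, n = 4 each) put the gene 3.84-fold higher with Klf4, a log2 difference of 1.94 (SE 0.22). The 4 controls lay close together and the Klf4 arrays less so. The difference was 1.97 within the first scan and 1.86 between the arrays of the second. In 22 alternative processings it ranged from 1.75 to 2.16, and the gene was past the threshold in all 22.

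Type II cadherins were represented by Cdh11 and Cdh22, and they pointed in opposite directions. Cdh22, the pituitary and brain cadherin, read -1.96, -1.65, -1.97 and -2.55 on control arrays 2 to 5 and -0.95, -1.06, -1.29 and -0.75 on Klf4 arrays 2 to 5. Every Klf4 array was above every control, with a gap of 0.35, which is less than the SD of the controls. The means of -2.03 ± 0.38 and -1.01 ± 0.23 (SD, n = 4 each) gave a 2.02-fold higher signal, a log2 difference of 1.02 (SE 0.21). Control replicate 5, the lowest control, and Klf4 replicate 5, the highest Klf4 array, were scanned together: the difference was 1.80 in that scan and 0.76 within the first, where each group had 3 arrays. Cdh22 was not past the threshold in 10 of the 22 alternatives, among them the first scan alone and leaving out control replicate 2 or 4 or Klf4 replicate 2, 3 or 5, though the difference stayed between 0.76 and 1.15. The second Cdh22 probe was not well above background on any array, so it gives no fold.

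Cdh11 encodes OB-cadherin, a type II cadherin of mesenchyme and bone that neural tissue also carries. It read -0.57, -0.46, -0.57 and -0.40 on control arrays 2 to 5 and -1.45, -1.07, -0.72 and -1.26 on Klf4 arrays 2 to 5. Every Klf4 array was below every control, by a gap of 0.15 set by Klf4 replicate 4. From -0.50 ± 0.08 to -1.12 ± 0.31 (SD, n = 4 each), the log2 difference was -0.63 (SE 0.17), a control signal 1.54 times that with Klf4. This is larger than the SD of either group, though not than the range of the Klf4 arrays. The gene was not past the threshold over all features. It was past it in 4 of the 22 alternatives: without Klf4 replicate 4, where the difference was -0.76, without both arrays numbered 4 (-0.78), with array weights (-0.69), and with the percentile taken over spots (-0.72). The difference was -0.55 within the first scan and -0.86 in the second.

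The atypical cadherins Cdh13 and Cdh17 had larger differences than the other 4 genes as processed here, but not with the normexp background correction, where Cdh15 was at 1.75. Cdh13, which encodes the lipid-anchored T-cadherin of neurons, endothelium and smooth muscle, read -5.68, -5.48, -6.07 and -4.86 on control arrays 2 to 5. On Klf4 arrays 2 to 5 it read -2.13, -2.90, -3.83 and -1.28. The groups were 1.03 apart, and within each of them replicate 5 was the highest and replicate 4 the lowest. In intensity units the controls were at 18.5 to 38.5 and the Klf4 arrays at 103 to 357. The probe was well above background on 3 of the 4 controls and on all 4 Klf4 arrays. Means of -5.52 ± 0.50 and -2.54 ± 1.09 (SD, n = 4 each) gave a 7.92-fold higher signal, a log2 difference of 2.99 (SE 0.51). The difference was 2.79 within the first scan and 3.58 in the second. With the normexp background correction it was 1.53 and not past the threshold, nor was the gene past it without control replicate 2 (2.93) or Klf4 replicate 2 (2.85).

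Cdh17 encodes LI-cadherin, an adhesion protein of intestinal epithelium. It read -5.83, -6.77, -7.16 and -6.40 on control arrays 2 to 5, of which replicate 2 alone was well above background. On the Klf4 arrays it read -3.06, -3.40, -5.11 and -2.76, and on Klf4 replicate 4, the lowest of these, it was not well above background. The groups were 0.72 apart, the gap lying between control replicate 2 and Klf4 replicate 4. Means of -6.54 ± 0.57 and -3.58 ± 1.05 (SD, n = 4 each) gave a 7.77-fold higher signal with Klf4, a log2 difference of 2.96 (SE 0.51). The probe met the filter only through the Klf4 group, and the fold rests on control signals of 8.65 to 26.2 intensity units, mostly not above background, against 42.4 to 188 with Klf4. The first scan gave 2.73 and the second 3.64. With normexp the difference was 1.08 and not past the threshold, and 5 of the 22 alternatives left Cdh17 out because the probe no longer met the filter on dim signals.

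Across these 4 higher genes the Klf4 arrays were not interchangeable. Klf4 replicate 4 was the lowest Klf4 array for 4 of the 4, at -5.11 for Cdh17, -3.83 for Cdh13, -1.29 for Cdh22 and -0.84 for Cdh15. For Cdh11 it was the Klf4 array nearest to the controls. Crx, a photoreceptor precursor gene, fell by 0.84 with Klf4 (limma adjusted p = 0.0378). It read -0.08 on Klf4 replicate 4, the lowest value of the 8 arrays. Without Klf4 replicate 4 the log2 differences were 3.42 for Cdh13, 3.47 for Cdh17, 2.14 for Cdh15 and 1.11 for Cdh22. The quality of that array was outside the software's limits, and the part of this in these values was not tested.

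**Figure D2:**
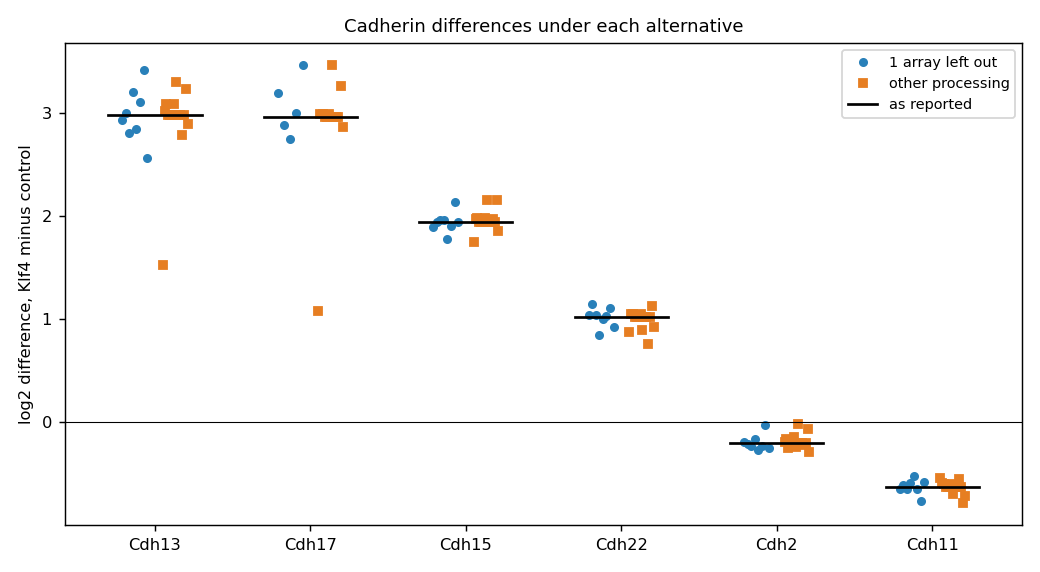
Log2 difference, Klf4 minus control (vertical axis), of the 6 cadherins as reported (black line), with each array left out (circles) and under the other processings (squares). The signs did not change; the lowest squares for Cdh13 (1.53) and Cdh17 (1.08) are the normexp background correction.

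Catenins and other genes that act with cadherins were compared in the same fit. Of 82 listed genes 67 had a probe and 58 were tested: 3 rose (Adam15, Jup and Ctnna1) and 1 fell (Cdh8), beside 3.2% and 0.467% of all features. The remaining 54 did not pass. The median log2 difference of the 58 was -0.07, as over all features.

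None of the 13 other cadherins that were tested rose; 1 fell, and 12 lay below 0, with a median of -0.18 (3 had an unadjusted p under 0.05 in limma). Over all features 18280 of 29988 lay below 0 and 3577 had an unadjusted p under 0.05. Among the cadherins below 0, Dsg3 (-0.37), Cdhr5 (-0.41) and Cdh8 entered the test through the control group alone. Their probes were too dim for the filter in the Klf4 group. Such selection favours differences below 0, and its part in the count of 12 was not tested. The 13 also leave out Cdh13, Cdh15, Cdh17 and Cdh22, which were picked on this contrast. The absence of rises among the rest was thus partly set in advance by that choice. The gene of the 13 that fell was Cdh8, a type II cadherin of neurons. It read -5.01, -4.90, -4.78 and -4.80 on control arrays 2 to 5 and -6.44, -5.82, -5.51 and -5.68 on Klf4 arrays 2 to 5. All Klf4 arrays lay below all controls, but the probe was well above background on 2 of the 4. Cdh8 fell by 0.99 (SE 0.20, limma adjusted p = 0.0350), from -4.87 ± 0.11 to -5.86 ± 0.41 (SD, n = 4 each). The probe met the filter only through the controls, so the size of the fall rests on Klf4 signals near background. The call was lost in 13 of the 22 alternatives, 6 of them by leaving out 1 array, whichever control it was or the Klf4 arrays 3 and 5 (adjusted p 0.0679 to 0.112), and with normexp the difference was -0.25 (adjusted p = 0.843). E-cadherin of epithelia (Cdh1) was at -0.09 (limma adjusted p = 0.983) and VE-cadherin of endothelium (Cdh5) at -0.01 (limma adjusted p = 0.992), neither past the threshold. The Cdh1 probe was dim, well above background on 3 of the 4 arrays of each group, and its difference was imprecise (SE 0.49). It ran from -0.74 to 0.21 over 20 alternatives.

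Of the 14 tested catenins and cytoplasmic partners 2 rose and none fell. Jup encodes plakoglobin, the catenin of desmosomes that also binds classical cadherins. It read -0.08, -0.13, -0.14 and -0.25 on control arrays 2 to 5 and 1.33, 1.17, 0.63 and 1.24 on Klf4 arrays 2 to 5, again lowest on Klf4 replicate 4 among the Klf4 arrays. Jup rose by 1.24 (SE 0.17, limma adjusted p = 0.00458), from -0.15 ± 0.07 to 1.09 ± 0.31 (SD, n = 4 each), a call held in all 22 alternatives. Alpha-E-catenin (Ctnna1) rose by 0.66 (SE 0.14, limma adjusted p = 0.0332), from 1.41 ± 0.11 to 2.07 ± 0.18 (SD, n = 4 each). Its 4 Klf4 arrays (1.88 to 2.29) were above all controls (1.27 to 1.54). The call was lost in 12 of the 22 alternatives, 6 of them by leaving out 1 array, each except control 5 and Klf4 replicate 4 (adjusted p 0.0804 to 0.121). Beta-catenin (Ctnnb1) was at 0.05 (adjusted p = 0.973), Ctnna2, the neural alpha-catenin, at -0.004 (adjusted p = 0.997), p120-catenin (Ctnnd1) at 0.12 (adjusted p = 0.946) and delta-catenin (Ctnnd2) at 0.18 (adjusted p = 0.764). These 4 did not pass in limma.

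Among 11 tested regulators of cadherins 1 rose. Adam15, a membrane metalloproteinase known to shed cadherin ectodomains, rose by 2.91 (SE 0.29, limma adjusted p = 0.000819). It went from -1.24 ± 0.25 to 1.68 ± 0.58 (SD, n = 4 each), and its other probe gave a smaller difference of 1.68. Adam15 held its call in all 22 alternatives, with 2.29 as the lowest value. The cadherin repressors Snai1 (-0.12, adjusted p = 0.924) and Snai2 (-0.74, adjusted p = 0.0539) did not pass in limma, though Snai2 did in 5 of the 22 alternatives. The Snai2 probe was well above background on 4 controls and 2 Klf4 arrays, so it met the filter on dim signals only through the controls. With normexp its difference was -0.25 (limma adjusted p = 0.772). No probe was matched to Zeb1. Of 10 tested protocadherins and 10 large cadherins and calsyntenins, 0 passed in limma; 2 of each had an unadjusted p under 0.05.

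**Figure D3:**
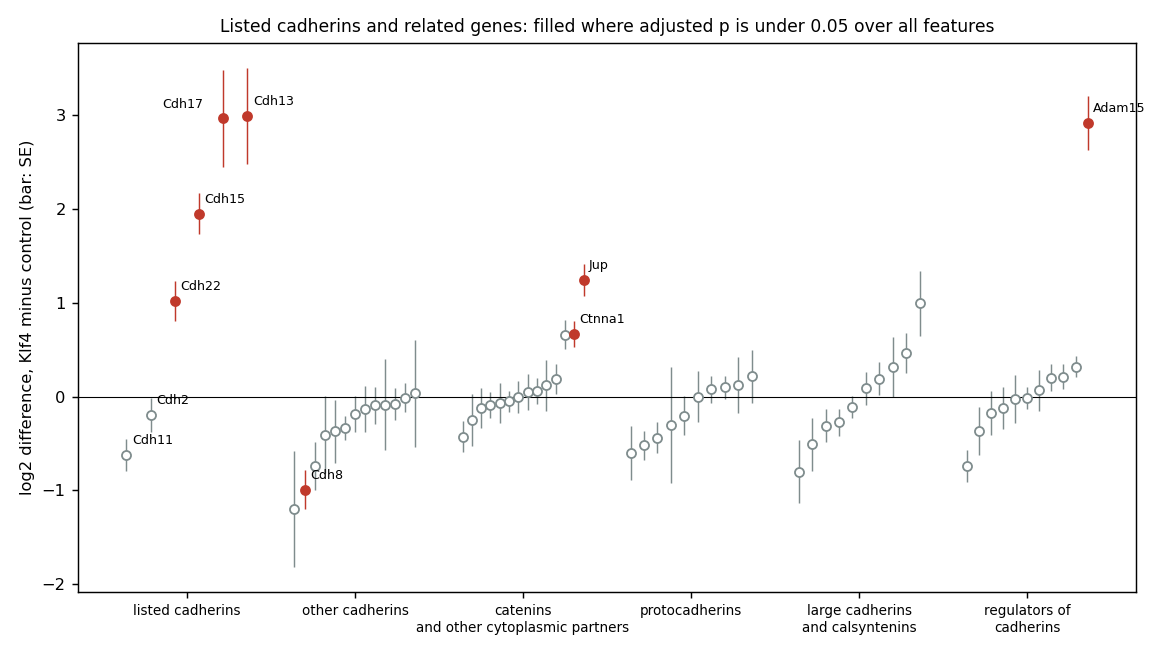
Log2 difference, Klf4 minus control (vertical axis, with the standard error of the fit), of the 6 listed cadherins and of 58 related genes by list; filled points have a limma adjusted p under 0.05 over all features. The listed cadherins, which were picked on this contrast, reach 2.99, and the related genes that pass are Adam15, Jup, Ctnna1 and Cdh8.

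Several of these cadherins are known from tissues other than the retina, so marker lists of those tissues were read on the same arrays. Skeletal muscle, the best known source of Cdh15, had a summed signal of 8.02 to 12.5 times the array's 75th percentile in the controls and 9.27 to 12.7 with Klf4. Without Chrna1, the brightest marker, the muscle list summed to 2.89 to 4.03 in the controls and 3.49 to 4.20 with Klf4. None of its 7 tested markers passed in limma, and 0 had an unadjusted p under 0.05; 7 of the 9 listed, among them Myf5, Myog and Chrna1, were well above background on all 8 arrays. Myf6 was not well above background on any array and Myod1 on 2 of 4 in each group. The intestinal list, beside Cdh17, summed to 0.224 to 0.491 in the controls and 0.274 to 0.487 with Klf4. Of its 3 tested markers Vil1 rose by 1.39 (limma adjusted p = 0.0392); it was well above background on 2 controls and 4 Klf4 arrays, so it met the filter on dim signals only through the Klf4 group and its control level is near background. The other tested markers, Cdx2 (-0.05, limma adjusted p = 0.981) and Alpi (-0.20, limma adjusted p = 0.902), did not pass. Both were well above background on all 8 arrays. Of the markers not tested, Lgals4 was well above background on 2 controls and 1 Klf4 array, and Fabp2 on 2 of 4 in each group.

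Endothelium, where Cdh13 is also known, moved in part. Of its 6 tested markers Tek (2.38, limma adjusted p = 0.00160) and Esam (adjusted p = 0.00991) rose. Esam was not well above background on any control and was at least 3.9-fold higher with Klf4, taking the dim arrays at their lowest signal well above background. Cdh5, Kdr, Flt1 and Erg did not pass, and Pecam1, Cldn5, Tie1 and Emcn were well above background on at most 2 of the 4 arrays of a group. The list summed to 94.4 to 114 in the controls and 88.0 to 156 with Klf4, nearly all of it Kdr; without Kdr it was 0.717 to 0.892 and 1.22 to 2.02. The pericyte and fibroblast list, beside Cdh11 and Cdh13, summed to 6.25 to 8.65 and 9.99 to 12.6; without Col1a1 it was 3.85 to 5.92 and 3.31 to 5.96, which overlap. In this list 2 of 7 tested markers rose, Col1a1 by 1.36 and Cspg4 by 1.62, while Col1a2 (-0.47), Col3a1 (-0.17) and Pdgfrb (-0.86) did not pass and Lum and Abcc9 were not well above background on any array. The part of these shifts in the cadherin values was not tested.

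In the neural lists the 12 retinal progenitor markers were well above background on all arrays, none passed in limma (2 had an unadjusted p under 0.05), and they summed to 81.6 to 131 in the controls and 93.4 to 108 with Klf4. Ganglion cell markers summed to 1.10 to 2.38 and 6.23 to 15.4, mostly Stmn2, without which they were at 0.671 to 0.958 and 1.06 to 2.20; 2 of the 5 tested rose. Of 7 tested photoreceptor markers 3 fell. The remaining lists overlapped between the groups: amacrine and horizontal cell 119 to 163 and 123 to 152, pigment epithelium 30.7 to 59.6 and 26.7 to 89.6, astrocyte 0.579 to 0.944 and 0.777 to 0.971, microglia 5.38 to 8.08 and 6.33 to 7.13. In these lists 1 of 6, 0 of 2, 1 of 5 and 1 of 8 tested markers rose and none fell in limma. The astrocyte marker that rose, S100b, was well above background on 2 controls and 4 Klf4 arrays. It met the filter on dim signals only through the Klf4 group, and its control level is near background. Of the pigment epithelium markers Tyr, Tyrp1 and Mlana were not well above background on any array, and of the microglia markers Ptprc was not. Nearly all of the pigment epithelium sum was Mitf, without which it was 0.124 to 0.282 in the controls and 0.0713 to 0.166 with Klf4. Most of the amacrine and horizontal cell sum was Prox1, without which it was 10.3 to 13.5 and 12.6 to 17.3.

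**Figure D4:**
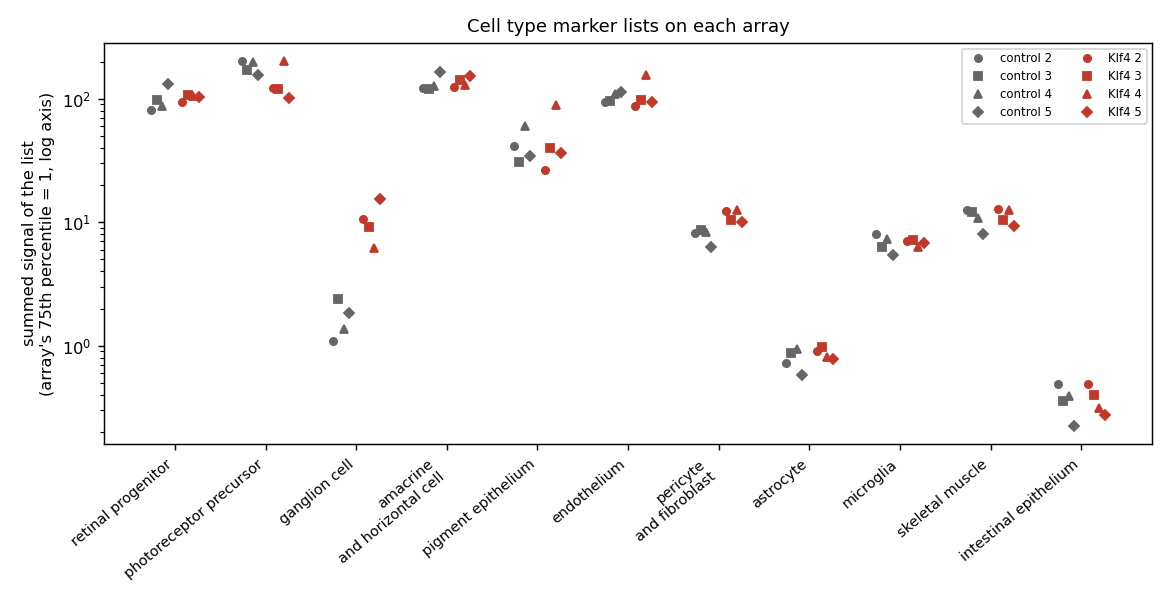
Summed linear signal of each marker list (vertical log axis, in units of the array's 75th percentile) on 4 control arrays (grey) and 4 Klf4 arrays (red); marker shapes give the array number. The skeletal muscle and intestinal lists overlap between the groups; in the photoreceptor list nearly all of the sum is Otx2, without which it was 20.2 to 29.5 in the controls and 13.9 to 24.6 with Klf4.

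Each of the 4 cadherins past the threshold was also set against 13495 other named genes over the 8 arrays, by Pearson correlation of the log2 signals. Cdh13 was most like Adgrb2 (r = 0.997), L1cam (0.994) and Cd151 (0.992). Cdh15 came nearest to Stbd1 (0.994), Agpat2 (0.992) and Slc66a3 (0.991). The pattern of Cdh17 was most like those of Tbx18 (0.986), Fgf8 (0.986) and Npc1 (0.985), and that of Cdh22 was close to those of Trim29 (0.988) and Wnt2b (0.986). These are descriptions over 8 arrays that share a split into 2 groups.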

How the data were processed

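RNA labelled with Cy3 was hybridised to 8 single-colour Agilent arrays on 1 slide, and the deposited intensity values come from Feature Extraction 10.7.3.1, per the file headers, which name build rn4. The signal used is the software's processed signal; per the file headers the software subtracted background and fitted spatial and multiplicative trends, and they name no scaling between arrays. Its deposited flags (unit other) mark control, dim, saturated and outlier spots. The authors' log2 table, of unstated method, has columns with a median of 7.54 and matching quantiles, is uncentred and was used as an alternative.

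Outlier spots were dropped, log2 signals averaged per probe, and the array's 75th percentile subtracted. Probes were kept if well above background on 3 of 4 arrays of a group; a gene is its brightest kept probe, and Cdh2 and Cdh22 probes are given separately. Of 45598 gene probes 21109 had a symbol through RefSeq accessions. Groups were fitted with limma 3.58.1 in R 4.3.3, two-sided, without covariates, adjusted over all features at 0.05; the fit was tested on simulated data. Alternatives numbered 22, of which 1, the percentile over spots, was chosen after seeing the data. The files lack mean spot signals, so normexp (offset 50) used median signals. The controls filled slide columns 1 and 3, and the Klf4 samples 2 and 4, so column and group cannot be told apart.

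The cadherins, the related genes and the markers were chosen with earlier results of these data known. Named genes are the cadherins, all related genes past the threshold, 10 preset related genes, Klf4, Rax, Crx and the 3 genes most like each cadherin past the threshold, apart from items not reported here; other marker genes were named after their values were seen. Figures used matplotlib 3.10.9 in Python 3.11.15. The number of arrays limits the precision.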

Additional observations from a re-analysis of the deposited data

Results flagged for a closer look

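Both Cdh2 probes had an array far from the rest of its group. On the brighter probe Klf4 replicate 4 read 2.26, against 2.87 for the nearest Klf4 array. On the second probe control replicate 5 read 2.51, against 2.62 for the nearest control. These were 2 of 40 groups of 4 arrays examined, and chance marks about 1 in 20.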

How the results depend on the processing

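The sign of the log2 difference of each of the 6 cadherins stayed the same in every alternative that gave a value (22 each, 17 for Cdh17). Past the threshold were Cdh15 in 22, Cdh13 in 19, Cdh17 in 16, Cdh22 in 12, Cdh11 in 4 and Cdh2 in 0. Normexp moved Cdh13 to 1.53 and Cdh17 to 1.08. Control signals near background limit both folds. The count of related genes that rose was 6 with array weights and 5 with the scan as a block, against 3. It was 2 with no filter on dim probes, the first scan alone, both arrays numbered 4 left out or the percentile over spots. With single arrays left out this count was 2 to 4. The count that fell was 1; it was 0 with normexp, quantile normalization, no filter on dim probes, the authors' deposited log2 values, the first scan alone or both arrays numbered 4 left out. It was 2 with the stricter filter, array weights, the scan as a block or the replicate block. With single arrays left out it was 0 to 1. Of all features 1101 were past the threshold, 2889 with array weights, 664 in the first scan alone, and 609 to 1622 with single arrays left out (707 and 730 without control replicates 2 and 4, and 609, 714 and 699 without Klf4 replicates 2, 3 and 5). The cause of these shifts was not tested. The first scan alone and the fits with 1 array left out also used fewer arrays, and the 1622 was without Klf4 replicate 4. Arrays of equal number correlated at 0.36, 0.24, 0.06 and 0.55 (numbers 2 to 5, deviations from group means over features), and control replicates 2, 3 and 5 correlated best with the Klf4 array of their own number, control replicate 4 with Klf4 replicate 2. This is a hint of pairing for 3 of the 4 numbers, from the data and not the design. With number 4 under 0.1 the numbers were not taken as pairs. Arrays of equal number also lay side by side in the same slide row, and only those numbered 5 were scanned separately. Shared position, and for number 5 the shared scan, cannot be told apart from pairing. The replicate block put 942 features past the threshold, and Cdh22 was not among them (limma adjusted p = 0.103).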
